A study of Mus musculus with 15 samples.

Results

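The comparison set RC siNcl against RC siDux: mouse embryonic stem (ES) cells of the E14 line with an siRNA to Ncl, and the same cells with an siRNA to Dux. The libraries were chosen by their labels and by no measured value, and they are 6 of the 15 in the series, 3 in each group. E14 cells (line E14Tg2A) were grown with serum and LIF. All 6 had first received 5 nmol of the RC antisense oligonucleotide (ASO), the study's control ASO, by nucleofection. The siRNA followed after 7 h at 100 pmol per well, and RNA of the unsorted cells was taken on day 2. Both groups thus hold an active siRNA, and a difference between them does not say which siRNA moved a gene. For that reason the level in the libraries with RC ASO and the control siRNA (RC control, n = 3) is given beside some results, and all 15 libraries share the estimate of the spread in each test. The labels do not tell whether replicates were separate cultures. The p-values therefore speak of the spread among these libraries, part of which may be technical.

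Nucleolin, encoded by Ncl, is an abundant RNA-binding protein of the nucleolus that takes part in transcribing and processing ribosomal RNA. Dux is a homeobox transcription factor that switches on the genes of the mouse 2-cell embryo, among them the Zscan4 cluster, and the endogenous retrovirus MERVL with its promoter repeat MT2_Mm. ES cell cultures hold a few cells that pass through this 2-cell-like state at any time. The tumour suppressor p53 is kept low by the ubiquitin ligase Mdm2, itself a p53 target, and disturbed ribosome production is a known trigger of p53. ATF4 is the transcription factor that drives genes of amino acid supply and tRNA charging.

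Reads were counted per gene, and the counts of a library summed to 9546481, 11534778 and 14946026 in RC siNcl and to 12372144, 11462962 and 15661357 in RC siDux. Levels are given as CPM, the count relative to the TMM-scaled total of its library, with the SD over 3 libraries. Tests are edgeR's quasi-likelihood test with Benjamini-Hochberg adjustment over all 14696 genes tested, or all 808 repeat subfamilies, with errors of log2 changes as SE, and a call needs an adjusted p under 0.05. A positive log2 change is higher in RC siNcl. The summed level of 8 ES cell markers lay at 4139 to 5173 CPM in RC siNcl and 4896 to 5938 CPM in RC siDux. Of these 8 markers 2 were called lower, where 7.1% of all genes tested were lower and 9.53% higher. Of 8 fibroblast markers 5 were tested and none was called, at a summed 49.4 to 60.5 CPM in RC siNcl and 46.1 to 60.5 CPM in RC siDux. Markers of endoderm, trophoblast, mesoderm and neuroectoderm summed to at most 24.2, 8.41, 11.1 and 89.3 CPM in RC siNcl and at most 21.4, 9.09, 13.2 and 105 CPM in RC siDux, with none of them called. These are short sets of 3 or 4 markers, and longer lists did hold calls. Of 21 endoderm genes tested 2 were higher and 1 lower, and of 18 fibroblast genes 2 were higher and 0 lower. The longer lists of the other lineages are given under other observations.

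The targets of both siRNAs differed in the labelled direction. Ncl was at 644, 619 and 516 CPM in RC siNcl, against 3961, 3941 and 3903 CPM in RC siDux. Each RC siNcl library lay far below each RC siDux library, a 6.64-fold lower level (log2 change -2.73 ± 0.13, adjusted p = 5.46e-09), and RC control stood at 5127 ± 931 CPM. Dux had 13, 9 and 30 reads in RC siNcl and 2, 0 and 5 reads in RC siDux, which are 1.38, 0.785 and 2.00 CPM against 0.164, 0 and 0.320 CPM. The groups did not overlap and the log2 change was 2.95 ± 0.59 (adjusted p = 0.00247). RC control held 0.228 ± 0.163 CPM of Dux, within the range of RC siDux, so the knockdown by siDux cannot be read from these counts. Against RC control the log2 change of Dux was 2.67 ± 0.58 in RC siNcl (adjusted p = 0.00225). In RC siDux it was -0.29 ± 0.83 (adjusted p = 0.862). The treatment of reads that match several places is unknown here. Values of Dux, of the near-identical Zscan4, Tcstv, Tdpoz and Dub genes and of repeats are therefore uncertain.

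**Figure D1:**
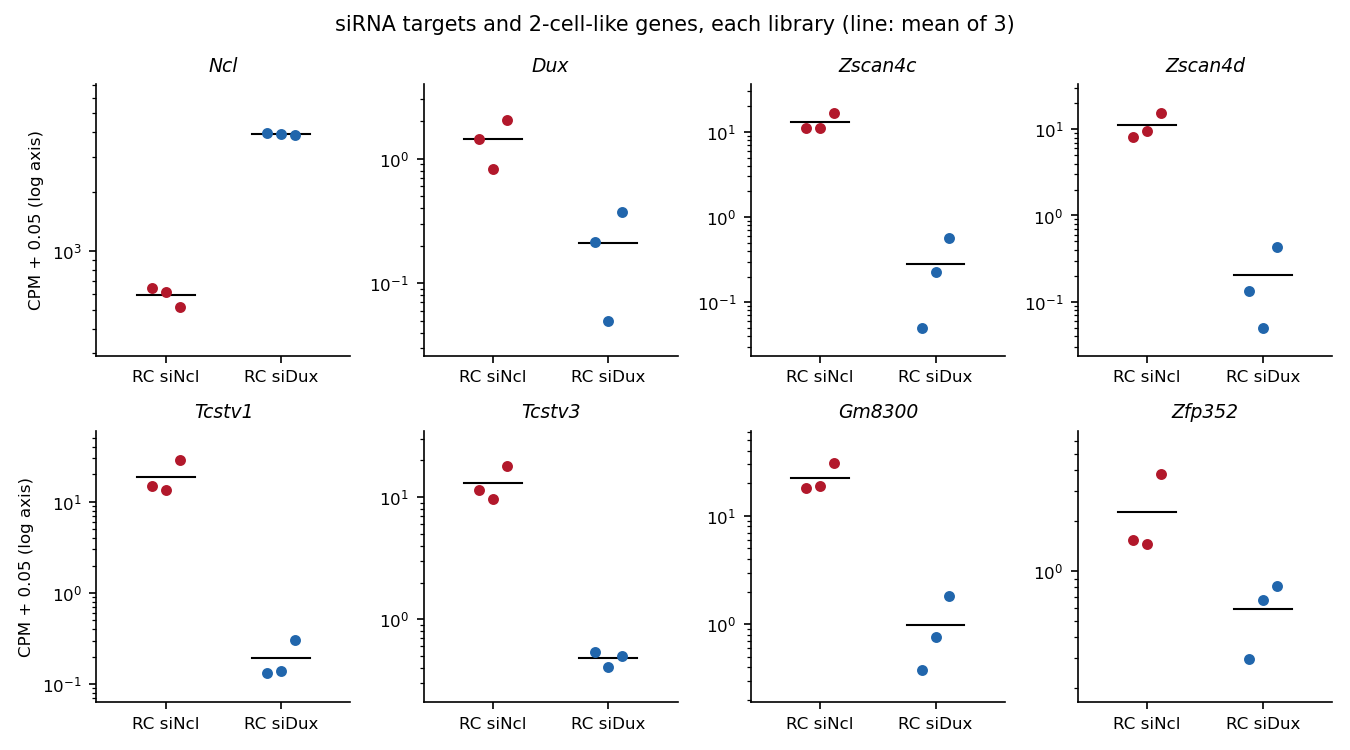
Ncl, Dux and 6 genes of the 2-cell-like list in each library, as CPM + 0.05 on a log axis, with RC siNcl left of RC siDux; points are libraries in the order of their numbers and lines are means of 3. RC siNcl lies below RC siDux for Ncl (593 against 3935 CPM) and above it in all the other panels, with no overlap.

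Genes of the 2-cell-like state had the largest median change of the gene lists examined. Of 70 listed genes 57 are in the table and 35 had enough counts to be tested, and 33 of these 35 were higher in RC siNcl and 0 lower, as also with edgeR at an unadjusted p under 0.05 and with DESeq2. Across all genes tested, 9.53% were called higher and 7.1% lower. The median log2 change of the tested members was 4.46, against 0 for all genes, with a range from -0.29 to 7.88. In 5 of them the 3 RC siDux libraries held no read. With those 5 at a bound of 3 reads over the group, the median was 4.24, an 18.9-fold difference. A member could pass the filter on low counts through RC siNcl or a LINE1 ASO group alone, so the share called does not describe the whole list. A filter of 5 CPM could be passed in the same way and does not lift this limit. With it 18 members were tested and 16 were higher, with a median of 4.47. In bulk RNA, more cells in the 2-cell-like state and more RNA per such cell cannot be told apart.

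The Zscan4 genes encode SCAN-domain zinc finger proteins of 2-cell embryos that act in telomere maintenance. Zscan4c was at 11.0, 11.1 and 16.8 CPM in RC siNcl, against 0, 0.176 and 0.512 CPM in RC siDux (log2 change 5.65 ± 0.40, adjusted p = 2.66e-07). Zscan4d was at 8.20, 9.42 and 15.5 CPM in RC siNcl, against 0.0822, 0 and 0.384 CPM in RC siDux (5.92 ± 0.44). Zscan4f was at 7.66, 8.20 and 14.2 CPM in RC siNcl, against 0.411, 0.353 and 0.0640 CPM in RC siDux (5.26 ± 0.41). In each of these genes RC siNcl replicate 3 was the highest library. Zscan4a averaged 9.90 ± 3.65 CPM in RC siNcl and 0.328 ± 0.0720 CPM in RC siDux. Zscan4b had 44 reads in all in RC siNcl and 0 in RC siDux, 16-fold higher against a floor of 3 reads over the group. Such a fold takes the RC siNcl reads as exact and leaves out the spread between libraries, so it is not a lower limit. Zscan4e had 104 reads in RC siNcl and 2 in RC siDux, a ratio of 56.8 with a 95% counting interval of 15.3 to 475. That interval pools the reads of each group and also leaves out the spread between libraries.

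The promoters of Zscan4c, Zscan4d and Zscan4f are printed to show how alike these copies are before the gene start. They are the 250 bases before the start of each gene from RefSeq (mouse build GRCm38.p6, another build than the mm9 of the counts), read 5′ to 3′ on the gene's strand, at chr7:11005495-11005744 (+) for Zscan4c, chr7:11166149-11166398 (-) for Zscan4d and chr7:11397665-11397914 (+) for Zscan4f. Capitals mark the longest run of bases that all 3 windows share, 50 bases. The sequences of the genes themselves, where reads were counted, were not compared. The windows therefore do not show how reads were shared among the copies.
Zscan4c: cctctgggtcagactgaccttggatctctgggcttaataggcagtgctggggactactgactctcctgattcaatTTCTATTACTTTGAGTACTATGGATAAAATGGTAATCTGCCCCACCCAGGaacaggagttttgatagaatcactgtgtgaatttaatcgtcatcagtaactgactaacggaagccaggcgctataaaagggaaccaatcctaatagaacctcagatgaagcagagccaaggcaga
Zscan4d: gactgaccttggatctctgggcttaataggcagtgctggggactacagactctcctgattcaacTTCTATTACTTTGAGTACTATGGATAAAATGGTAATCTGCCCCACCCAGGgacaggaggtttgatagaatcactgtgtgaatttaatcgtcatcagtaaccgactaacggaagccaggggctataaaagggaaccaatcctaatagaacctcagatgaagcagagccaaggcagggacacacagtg
Zscan4f: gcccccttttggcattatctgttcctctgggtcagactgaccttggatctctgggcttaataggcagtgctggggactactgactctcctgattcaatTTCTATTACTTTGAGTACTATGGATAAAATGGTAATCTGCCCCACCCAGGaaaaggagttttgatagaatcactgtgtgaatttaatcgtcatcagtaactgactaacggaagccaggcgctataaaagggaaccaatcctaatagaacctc

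Other members of the list were higher in RC siNcl too. Tcstv1 and Tcstv3 encode proteins of 2-cell embryos named for that stage. Tcstv1 was at 14.8, 13.3 and 28.5 CPM in RC siNcl, against 0.0822, 0.0882 and 0.256 CPM in RC siDux, the highest fold (119-fold) among list members that reached 5 CPM in RC siNcl (log2 change 6.89 ± 0.49, adjusted p = 2.66e-07). Tcstv3 averaged 13.0 ± 4.41 CPM in RC siNcl and 0.431 ± 0.0716 CPM in RC siDux (4.89 ± 0.32). Gm8300 averaged 22.4 ± 6.92 CPM in RC siNcl and 0.942 ± 0.759 CPM in RC siDux (4.48 ± 0.33). Gm12794, a member of the Prame family, averaged 9.88 ± 3.71 CPM in RC siNcl and 0.240 ± 0.148 CPM in RC siDux (5.26 ± 0.39), and the transmembrane protein gene Tmem92 6.12 ± 1.85 CPM in RC siNcl and 0.0975 ± 0.0863 CPM in RC siDux (5.82 ± 0.47). Dub1, which encodes a deubiquitinase, averaged 10.3 ± 2.76 CPM in RC siNcl and 1.46 ± 0.215 CPM in RC siDux (2.81 ± 0.27). Tdpoz4, of the Tdpoz family, had 67 reads in RC siNcl and 0 in RC siDux, 24.4-fold higher against the same floor of 3 reads. AF067063, Gm13078 and Gm13083 were also without a read in RC siDux and 14.2-, 11.3- and 7.28-fold higher against that floor. These folds have the limits given for Zscan4b.

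Smaller differences stood at the other end of the list. Zfp352, a zinc finger gene transcribed with MERVL, was at 1.49, 1.40 and 3.74 CPM in RC siNcl, against 0.247, 0.617 and 0.768 CPM in RC siDux (2.03 ± 0.48, adjusted p = 0.00838), and its call ended without RC siNcl replicate 3 (log2 change 1.36, adjusted p = 0.0911). Zfp750, a regulator of epidermal differentiation, averaged 37.0 ± 4.78 CPM in RC siNcl and 18.4 ± 4.93 CPM in RC siDux (1.00 ± 0.19). Sp110, a nuclear body protein gene, had a log2 change of 1.94 ± 0.38 (adjusted p = 0.00225). The members not called were Patl2, at 4.68 ± 0.0608 CPM in RC siNcl and 5.77 ± 1.24 CPM in RC siDux (-0.29 ± 0.43), and Pramef8, at 60.5 ± 11.2 CPM in RC siNcl and 55.3 ± 8.77 CPM in RC siDux (0.13 ± 0.14). Without RC siNcl replicate 3, 29 members were higher and the list median was 3.87.

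Set against RC control, 31 of the 35 tested members were higher in RC siNcl, where 16.7% of all genes were. In RC siDux 15 members were lower than in RC control and 1 was higher, where 4.5% of all genes were lower and 6.09% higher. The summed level of the list was 95.8, 74.1 and 96.9 CPM in RC siDux, against 111, 98.6 and 90.3 CPM in RC control, so those sums overlapped. Pramef8, which was not called between the siRNA groups, held 2169 of the 3520 reads of the list in RC siDux. The sum therefore mostly follows that gene and says little of the other members. The median log2 change of the tested members was 2.45 for RC siNcl against RC control and -1.84 for RC siDux against RC control, comparisons that share the 3 RC control libraries. Zscan4c in RC control was at 2.35 ± 0.557 CPM, between both groups, as were Tcstv3 at 2.58 ± 0.499 CPM and Gm8300 at 3.50 ± 0.463 CPM.

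Repeat RNA differed in few subfamilies: 13 of 808 tested, or 1.61%, were higher in RC siNcl and 1, or 0.124%, was lower, and the median of all subfamilies was 0.05. MERVL-int, the internal part of the MERVL retrovirus, was at 1611, 1635 and 3097 CPM in RC siNcl, against 464, 477 and 417 CPM in RC siDux (log2 change 2.22 ± 0.23, adjusted p = 5.08e-06). Its promoter repeat MT2_Mm was at 203, 196 and 333 CPM in RC siNcl, against 63.4, 64.2 and 49.5 CPM in RC siDux (2.05 ± 0.18, adjusted p = 8.29e-07). As with the Zscan4 genes, RC siNcl replicate 3 was the highest library in both, and without it the log2 changes were 1.84 and 1.76. RC control held 529 ± 144 CPM of MERVL-int, and the median of the 3 MERVL members was 1.66 for RC siNcl and -0.23 for RC siDux against that shared control.

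The other called repeats were mostly retroviral. RLTR1B-int was at 599.7, 501 and 631 CPM in RC siNcl, against 325, 312 and 342 CPM in RC siDux (0.82 ± 0.14, adjusted p = 0.00221). RMER16-int (0.72 ± 0.15), LTRIS2 (0.72 ± 0.15), MMERGLN-int (0.62 ± 0.12), MERVL_2A-int (0.56 ± 0.12), MT2C_Mm (0.76 ± 0.12), ERVL-B4-int (1.02 ± 0.21) and the MaLR element ORR1A3-int (0.87 ± 0.16) were higher too. So were the non-LTR repeat CR1_Mam (0.85 ± 0.17), the DNA transposon Kanga1 (0.75 ± 0.18) and the simple repeat (TTA)n (0.82 ± 0.14). The simple repeat (CAT)n was the subfamily called lower, at 49.8, 47.6 and 61.9 CPM in RC siNcl, against 93.6, 76.3 and 105 CPM in RC siDux (-0.79 ± 0.14, adjusted p = 0.00307). Without RC siNcl replicate 3, MERVL_2A-int, ERVL-B4-int, Kanga1, LTRIS2, MMERGLN-int and RMER16-int were no longer called. The same held for MERVL_2A-int, Kanga1 and LTRIS2 without RC siDux replicate 1, for CR1_Mam, ERVL-B4-int, Kanga1 and RMER16-int without RC siDux replicate 2, for MERVL_2A-int without RC siDux replicate 3, and for Kanga1 without RC siNcl replicate 1. With the replicate number as a block, 30 subfamilies were higher and 7 lower, and without RC siNcl replicate 3, 7 were higher.

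The young LINE1 subfamilies, called L1Md, did not pass. Their summed level was 9062, 7667 and 6093 CPM in RC siNcl, against 9463, 8071 and 5691 CPM in RC siDux, so libraries with the same number lay closer to each other than to their own group. All 6 subfamilies overlapped between the groups, with log2 changes from -0.12 ± 0.25 for L1Md_A to 0.07 ± 0.26 for L1Md_Gf, and each of the 6 had the opposite sign in at least 1 alternative. IAPEz-int, of the IAP retrotransposons, was at 499.6 ± 55.8 CPM in RC siNcl and 457 ± 51.2 CPM in RC siDux (0.13 ± 0.11, adjusted p = 0.761), a direction that turned with scaling to spike-ins. Trim28, which encodes a corepressor of retrotransposons, was at 1846 ± 146 CPM in RC siNcl and 2433 ± 61.2 CPM in RC siDux (-0.40 ± 0.11, adjusted p = 0.0215). That call ended without RC siNcl replicate 3 (-0.33) and without RC siDux replicate 1 (-0.39) or 2 (-0.38).

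**Figure D2:**
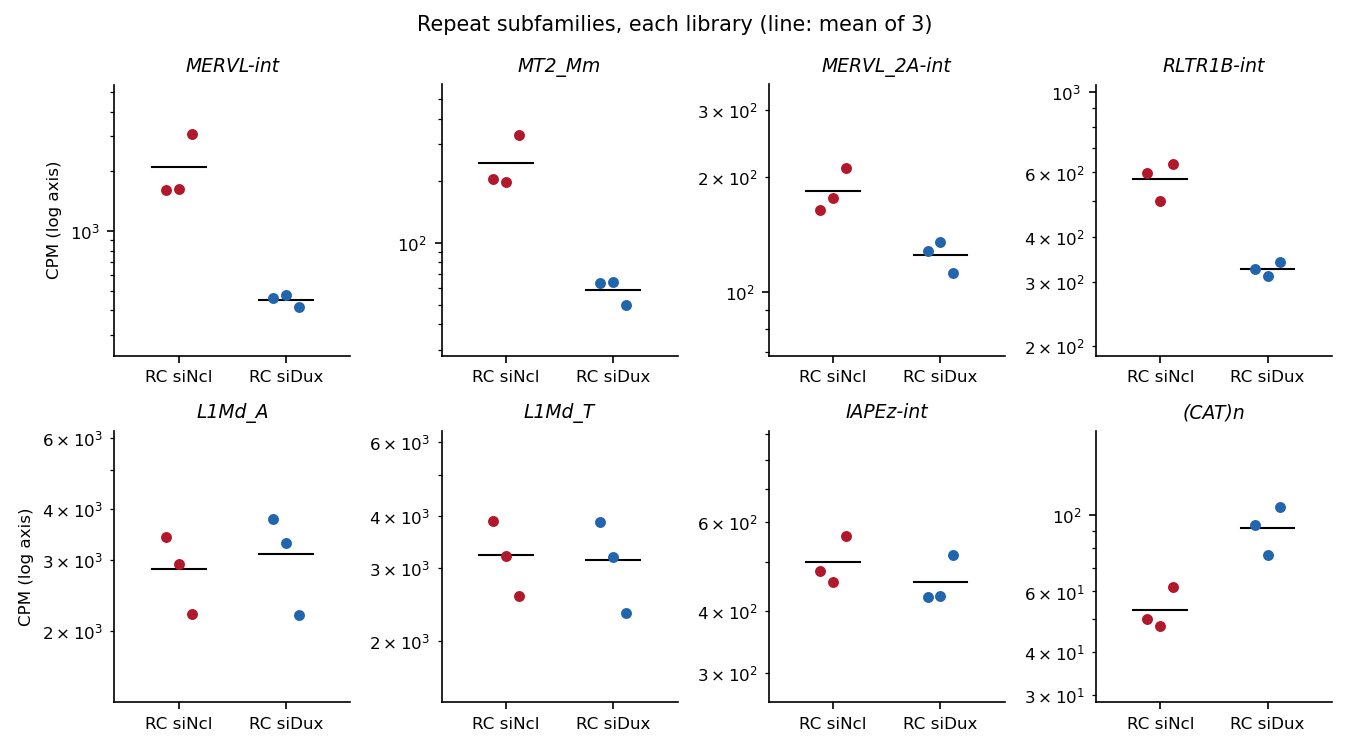
Repeat subfamilies in each library as CPM on a log axis, RC siNcl left of RC siDux, with lines for means of 3. MERVL-int and MT2_Mm stand apart (2114 against 453 CPM and 244 against 59.0 CPM), while L1Md_A, L1Md_T and IAPEz-int overlap.

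Targets of p53 were the next group. Among 12 regulators and feedback genes 8 were higher and 1 lower, with a median log2 change of 0.61. The counts of this and the following lists are read against all genes tested, of which 9.53% were higher and 7.1% lower. Mdm2 was at 841, 866 and 1038 CPM in RC siNcl, against 380.3, 328 and 479 CPM in RC siDux (1.21 ± 0.14, adjusted p = 2.13e-05). RC control held 156 ± 13.8 CPM, so that both siRNA groups lay above it. Trp53inp1, which encodes a partner of p53 in stress, averaged 1026 ± 153 CPM in RC siNcl and 399.9 ± 67.9 CPM in RC siDux (1.36 ± 0.12, adjusted p = 1.6e-06). Ccng1, the cyclin G1 gene, averaged 990.2 ± 122 CPM in RC siNcl and 533 ± 66.0 CPM in RC siDux (0.89 ± 0.13). Phlda3 (0.83 ± 0.17) and the RNA-binding protein gene Zmat3 (0.58 ± 0.12) were higher as well. Trp53 itself, the p53 gene, was lower, at 429, 406 and 421 CPM in RC siNcl, against 549, 485 and 546 CPM in RC siDux (-0.33 ± 0.09, adjusted p = 0.0179), a call that ended without RC siNcl replicate 2 or 3 or RC siDux replicate 1 or 3 (log2 changes from -0.33 to -0.30). RC control held 421 ± 32.5 CPM of Trp53. Against it the log2 change was -0.01 ± 0.09 in RC siNcl and 0.32 ± 0.09 in RC siDux.

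Of 18 targets in arrest and stress defence 12 were higher and 0 lower (13 and 1 at an unadjusted p under 0.05, 13 and 0 with DESeq2), with a median of 0.74. Plk2, a polo-like kinase gene, was at 400.3, 354 and 462 CPM in RC siNcl, against 136, 104 and 195 CPM in RC siDux (1.48 ± 0.22, adjusted p = 0.000238). Btg2, an antiproliferative gene, averaged 180.0 ± 34.9 CPM in RC siNcl and 82.5 ± 21.6 CPM in RC siDux (1.12 ± 0.17). The xylulose reductase gene Dcxr (1.22 ± 0.19), the epoxide hydrolase gene Ephx1 (1.03 ± 0.11) and the adenylate kinase gene Ak1 (0.87 ± 0.16) were also higher. Cdkn1a, the gene of the cyclin-dependent kinase inhibitor p21, was at 106, 104 and 128 CPM in RC siNcl, against 62.4, 49.3 and 88.7 CPM in RC siDux (0.75 ± 0.20, adjusted p = 0.0149). Its call ended without RC siNcl replicate 3 (0.65) and without RC siDux replicate 1 (0.71) or 2 (0.58). The number of these 18 genes called was 8 without RC siNcl replicate 3, or without RC siDux replicate 1 or 2. In most of the p53 targets given here by library, replicate 3 was the highest library of each group.

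Death targets of p53 numbered 14 tested, 7 higher and 0 lower (9 and 0 at an unadjusted p under 0.05, 7 and 0 with DESeq2), with a median of 0.55. Apaf1, the scaffold of the apoptosome, was at 208, 195 and 241 CPM in RC siNcl, against 81.8, 76.7 and 94.4 CPM in RC siDux (1.35 ± 0.11, adjusted p = 7.33e-07). The death-domain gene Lrdd, the receptor genes Eda2r and Tnfrsf10b and the nuclease gene Aen differed by 0.88 ± 0.12, 0.85 ± 0.11, 0.64 ± 0.09 and 0.61 ± 0.09. The genes of the BH3-only proteins Puma (Bbc3, 0.01 ± 0.15) and Noxa (Pmaip1, 0.50 ± 0.23, adjusted p = 0.159) and the effector gene Bax (0.27 ± 0.16) were not called. With the replicate block Pmaip1 was called (0.53, adjusted p = 0.0251). Among 9 DNA repair targets, the endonuclease gene Ercc5 (1.10 ± 0.11) and the polymerase gene Polk (0.85 ± 0.10) were higher. The replication clamp gene Pcna was lower, at 291 ± 23.5 CPM in RC siNcl and 427 ± 8.21 CPM in RC siDux (-0.55 ± 0.10), and the list median was 0.05. Against RC control the medians of the regulator, arrest and death lists were 0.91, 1.2 and 0.86 in RC siNcl and 0.44, 0.61 and 0.35 in RC siDux.

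Promoters of 3 of these genes are shown for the p53 half-site, a short consensus that p53 binds in pairs, marked in capitals. They were picked after the search, as the 3 with the smallest p-values among the called p53-list genes that hold a match. They too are the 250 bases before the start in RefSeq GRCm38.p6, at chr10:117710759-117711008 (-) for Mdm2, chr13:96519188-96519437 (-) for Polk and chr11:40755287-40755536 (-) for Ccng1.
Mdm2: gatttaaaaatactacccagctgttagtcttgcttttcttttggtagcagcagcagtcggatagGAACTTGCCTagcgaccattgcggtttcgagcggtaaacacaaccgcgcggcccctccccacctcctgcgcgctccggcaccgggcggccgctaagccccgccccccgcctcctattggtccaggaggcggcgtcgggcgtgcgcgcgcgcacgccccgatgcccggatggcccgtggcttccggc
Polk: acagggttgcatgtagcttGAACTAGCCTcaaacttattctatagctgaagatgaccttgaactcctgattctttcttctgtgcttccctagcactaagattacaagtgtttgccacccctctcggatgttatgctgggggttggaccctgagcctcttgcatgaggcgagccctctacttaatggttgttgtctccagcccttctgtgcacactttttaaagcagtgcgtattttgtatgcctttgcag
Ccng1: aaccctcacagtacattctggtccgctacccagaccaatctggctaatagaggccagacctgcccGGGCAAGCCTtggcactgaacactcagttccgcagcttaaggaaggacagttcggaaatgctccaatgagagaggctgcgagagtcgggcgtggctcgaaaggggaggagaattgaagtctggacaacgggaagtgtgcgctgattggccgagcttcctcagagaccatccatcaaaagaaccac
The matches begin at base -186 in Mdm2, -231 in Polk and -185 in Ccng1, counted from the gene's start. On both strands, the half-site consensus was in 7.13% of all 32851 promoter windows and in 7 of the 33 windows of the 24 called p53-list genes that had a window (21.2%). Those genes were listed as p53 regulators or targets beforehand and include genes called lower, such as Trp53. The larger share therefore says nothing of these samples. A Dux-like motif, searched on both strands in the 12 windows of 11 called 2-cell-like genes, was in 0 of them and in 0.0304% of all windows, which says only that its letters are not in these windows. A match is a description of letters and not a bound site.

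**Figure D3:**
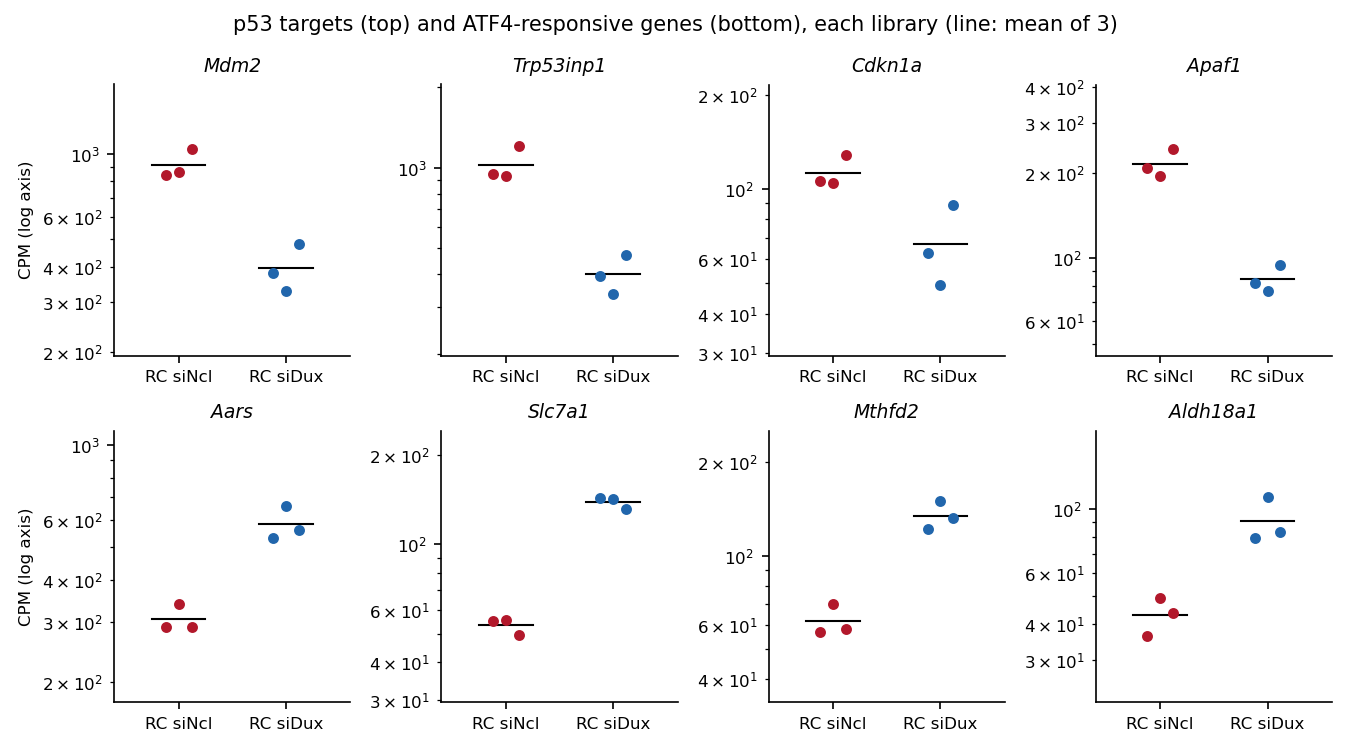
p53 targets (top) and ATF4-responsive genes (bottom) in each library as CPM on a log axis, RC siNcl left of RC siDux, with lines for means of 3. The top genes lie higher in RC siNcl (Apaf1 at 215 against 84.3 CPM) and the bottom ones lower (Aars at 307 against 583 CPM).

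Genes of the ATF4 response were lower in RC siNcl. Of 35 tested, 15 were lower and 1 higher, with a median log2 change of -0.47, where 7.1% of all genes were lower and 9.53% higher. Slc7a1, the carrier of arginine and lysine, was at 55.0, 55.5 and 49.5 CPM in RC siNcl, against 143, 141 and 131 CPM in RC siDux (-1.38 ± 0.15, adjusted p = 1.03e-05). Aars, the alanyl-tRNA synthetase gene, was at 291, 339.5 and 290.4 CPM in RC siNcl, against 531, 659 and 559.8 CPM in RC siDux (-0.93 ± 0.09, adjusted p = 6.92e-06). The groups did not overlap in either gene. The mitochondrial folate enzyme gene Mthfd2 (-1.13 ± 0.14), the proline synthesis gene Aldh18a1 (-1.07 ± 0.16), the asparaginyl-tRNA synthetase gene Nars (-0.68 ± 0.10) and the stress protein gene Nupr1 (-1.81 ± 0.36) were lower too. So were asparagine synthetase (Asns, -0.64 ± 0.12) and the serine and glycine genes Psat1 (-0.77 ± 0.13), Phgdh (-0.61 ± 0.18) and Shmt2 (-0.53 ± 0.12). Phgdh was not called without RC siNcl replicate 1 or 3 or RC siDux replicate 2 or 3, nor Shmt2 without RC siNcl replicate 3. Atf4 itself (-0.28 ± 0.10, adjusted p = 0.0576), Chac1 (-1.78 ± 0.63, adjusted p = 0.0619) and the cystine carrier gene Slc7a11 (-1.54 ± 0.62, adjusted p = 0.1) missed the threshold, and all 3 passed with the replicate block (adjusted p = 0.0447, 0.0494 and 0.045). Ddit4, an inhibitor of mTORC1 and also a p53 target, was the member that was higher (0.83 ± 0.24, adjusted p = 0.0242), with the call ended in 4 of 6 fits that left out a library. RC control held 158 ± 29.3 CPM of Slc7a1 and 724 ± 47.6 CPM of Aars.

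Nucleolar and ribosomal genes differed little beside Ncl. The nucleolar proteins nucleophosmin (Npm1) and fibrillarin (Fbl) were at 4693 ± 310.5 and 300.3 ± 17.6 CPM in RC siNcl and at 4528 ± 67.8 and 298 ± 10.5 CPM in RC siDux. Their log2 changes of 0.05 ± 0.15 and 0.01 ± 0.11 turned negative with scaling to spike-ins. Of 15 genes of RNA polymerase I and its factors 2 were lower, the rDNA transcription factor gene Ubtf (-0.59 ± 0.10) and the subunit gene Polr1c (-0.68 ± 0.11), with a median of 0.05. Of 34 small-subunit assembly factors 2 were higher, Utp20 (0.38 ± 0.09) and Nol11 (0.35 ± 0.08), and of 32 large-subunit factors 2 were lower, Nle1 (-0.52 ± 0.13) and Noc4l (-0.27 ± 0.07). Both shares lay below those of all genes, 9.53% higher and 7.1% lower. Noc4l was not called in 3 of the fits without a library, nor Nle1 without RC siNcl replicate 3. Of 76 cytosolic ribosomal protein genes 1 was lower, Rpl3, at 1356, 1438 and 1329 CPM in RC siNcl, against 2238, 2466 and 2384 CPM in RC siDux (-0.78 ± 0.12, adjusted p = 0.00024). The median of that list was -0.06, and its share of lower calls lay below the 7.1% of all genes. Parn, a deadenylase gene, was higher (0.35 ± 0.08), and the treacle gene Tcof1 lower (-0.30 ± 0.08), among 13 further nucleolar genes, and the call of Tcof1 ended in 4 of the 6 fits without a library. Of 10 snoRNP protein genes Nop10 was lower (-0.42 ± 0.13), a call lost in each of the 6 fits without a library. With the replicate block 2 polymerase I genes were higher, and 2 ribosomal protein and 2 snoRNP genes lower.

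Among 34 genes of DNA replication and S phase 10 were lower and 0 higher (18 and 1 at an unadjusted p under 0.05, 12 and 0 with DESeq2), with a median of -0.23. Across all genes tested, 7.1% were lower and 9.53% higher. Mcm4, of the replicative helicase, was at 300.0, 301 and 287 CPM in RC siNcl, against 420.1, 429.8 and 414 CPM in RC siDux (-0.51 ± 0.06, adjusted p = 4.64e-05). The loading factor genes Cdc6 (-0.60 ± 0.09) and Cdt1 (-0.70 ± 0.10) and the helicase activator gene Mcm10 (-0.49 ± 0.07) were lower too. Of 30 G2/M genes 9 were higher and 0 lower (10 and 1 unadjusted, 9 and 0 with DESeq2), with a median of 0.11. They include Kif23 (0.49 ± 0.09), Cenpe (0.39 ± 0.07), Bub1 (0.44 ± 0.09), Ttk (0.45 ± 0.10) and Hmmr (0.35 ± 0.08), which act at the mitotic spindle or kinetochore. Without RC siDux replicate 3, 5 were higher, and with scaling to spike-ins the median turned to -0.18, which is 0.09 relative to all genes.

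Of 28 pluripotency factors 9 were lower and 2 higher, with a median of -0.31. The share lower lay above the 7.1% of all genes, and the share higher lay below the 9.53% of all genes. With the replicate block 14 were lower, while 4 were without RC siNcl replicate 3 and 5 without RC siDux replicate 2. Pou5f1, the Oct4 gene, was at 835, 800.2 and 705 CPM in RC siNcl, against 1051, 1102 and 985 CPM in RC siDux (-0.42 ± 0.13, adjusted p = 0.0314). That call ended without RC siNcl replicate 2 or 3 or RC siDux replicate 1 or 2 (log2 changes from -0.44 to -0.36). Prdm14 (-0.67 ± 0.11), Klf5 (-0.69 ± 0.15), Tfcp2l1 (-0.59 ± 0.13) and the growth factor gene Fgf4 (-0.74 ± 0.17) were lower. Zfp42 (-0.56 ± 0.14) was as well, and its call ended without RC siNcl replicate 3 or RC siDux replicate 2. Sox2 (0.08 ± 0.09, of the opposite sign with scaling to spike-ins) and Nanog (-0.16 ± 0.17) were not called, and their libraries overlapped. Fbxo15 was higher, at 168 ± 18.8 CPM in RC siNcl and 101 ± 12.4 CPM in RC siDux (0.73 ± 0.14), and so was Dppa3 (1.07 ± 0.32), whose call ended in 5 of 6 fits without a library. RC control held 158 ± 39.3 CPM of Fbxo15. Against it the log2 change was 0.09 ± 0.14 in RC siNcl and -0.64 ± 0.14 in RC siDux.

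Among called genes without overlap that reached 5 CPM in the group where they were higher, the 12 largest positive changes were 9 members of the 2-cell-like list and 3 genes of no list. Gm5039 was at 9.37, 6.02 and 17.0 CPM in RC siNcl, against 0.247, 0.0882 and 0.0640 CPM in RC siDux (6.33 ± 0.49), and B020031M17Rik had a log2 change of 4.84 ± 0.42. Gm4971 had 211 reads in RC siNcl and 3 in RC siDux, a ratio of 76.8 with a counting interval of 25.9 to 375, which leaves out the spread between libraries. On the lower side, genes of this kind included Zc3h6 (-2.59 ± 0.42), Megf11 (-2.27 ± 0.28), the growth factor gene Fgf17 (-2.21 ± 0.27), Mipol1 (-2.20 ± 0.26), the Wnt deacylase gene Notum (-2.17 ± 0.25) and Rnf157 (-2.04 ± 0.31). Cpne1, a calcium-dependent phospholipid-binding protein gene, was at 29.1, 27.9 and 35.0 CPM in RC siNcl, against 111, 104 and 125 CPM in RC siDux (-1.88 ± 0.11, adjusted p = 7.38e-08). Cryl1 (-1.81 ± 0.22) and the inhibin subunit gene Inhbb (-1.81 ± 0.29) were among them too, beside Ncl and Nupr1, given above. Lack of overlap between the groups was a condition of this choice and not a result.

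**Figure D4:**
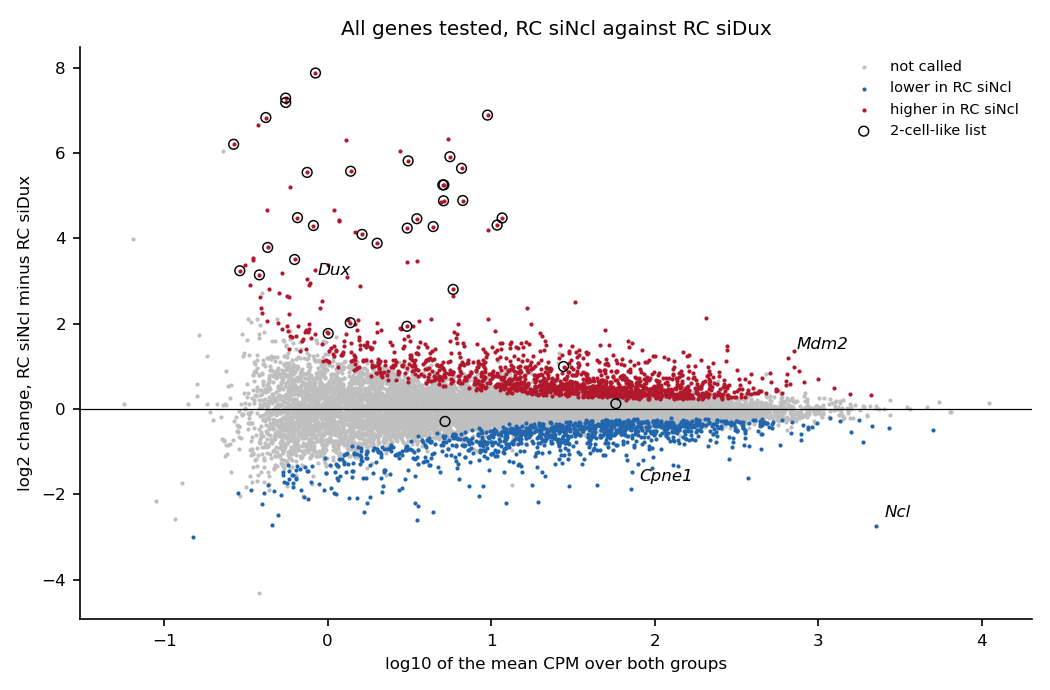
Log2 change, RC siNcl minus RC siDux, of each of the 14696 genes tested against the log10 of the mean CPM of both groups; red genes are higher, blue genes lower, and circles mark the 2-cell-like list. Most circles lie near the top of the plot, with a list median of 4.46.

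In all, 1401 genes were higher and 1044 lower in RC siNcl, with 1865 higher and 1459 lower when the replicate number was a block, and 349 (2.37%) and 201 (1.37%) of those tested changed at least 2-fold. Every RC siNcl library lay above every RC siDux library in 20.9% of genes and below in 19.9%. Spike-in (ERCC) counts came to 0.347, 0.57 and 0.525% of gene counts in RC siNcl and to 0.273, 0.423 and 0.523% in RC siDux, higher in RC siNcl for each number. Scaled to them, the median of all genes moved to -0.27, and 62 genes were higher and 51 lower. With that scaling and the replicate block, a choice made after seeing the data, the median was -0.25, with 432 genes higher and 1957 lower. Set against the moved median, the list medians were 4.5 for 2-cell-like genes and -0.48 for ATF4 genes under both choices together. Scaling to spike-ins alone left 28 higher 2-cell-like genes, 3 lower ATF4 genes, and 0 called in the p53, pluripotency, S-phase and G2/M lists and among repeats. Set against the moved median, the sizes were then 0.76 for p53 arrest genes, 0.58 for p53 death genes, -0.31 for pluripotency factors and -0.24 for S-phase genes. With the block as well, 4 p53 regulators, 8 arrest genes and 5 death genes were higher and 1 regulator and 1 arrest gene lower. In that fit 23 ATF4 genes, 15 pluripotency factors and 16 S-phase genes were lower, and 0 G2/M genes were called. These counts are read against the 432 higher and 1957 lower of all 14696 genes in the same fit. Relative to its median, the list medians were -0.31 for pluripotency factors, -0.24 for S-phase genes and 0.1 for G2/M genes. For repeats at an unadjusted p under 0.05, edgeR found 2 higher and 7 lower with scaling to spike-ins alone. With the block as well, these were 18 and 103. Whether the cells differed in total RNA was not tested.

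**Figure D5:**
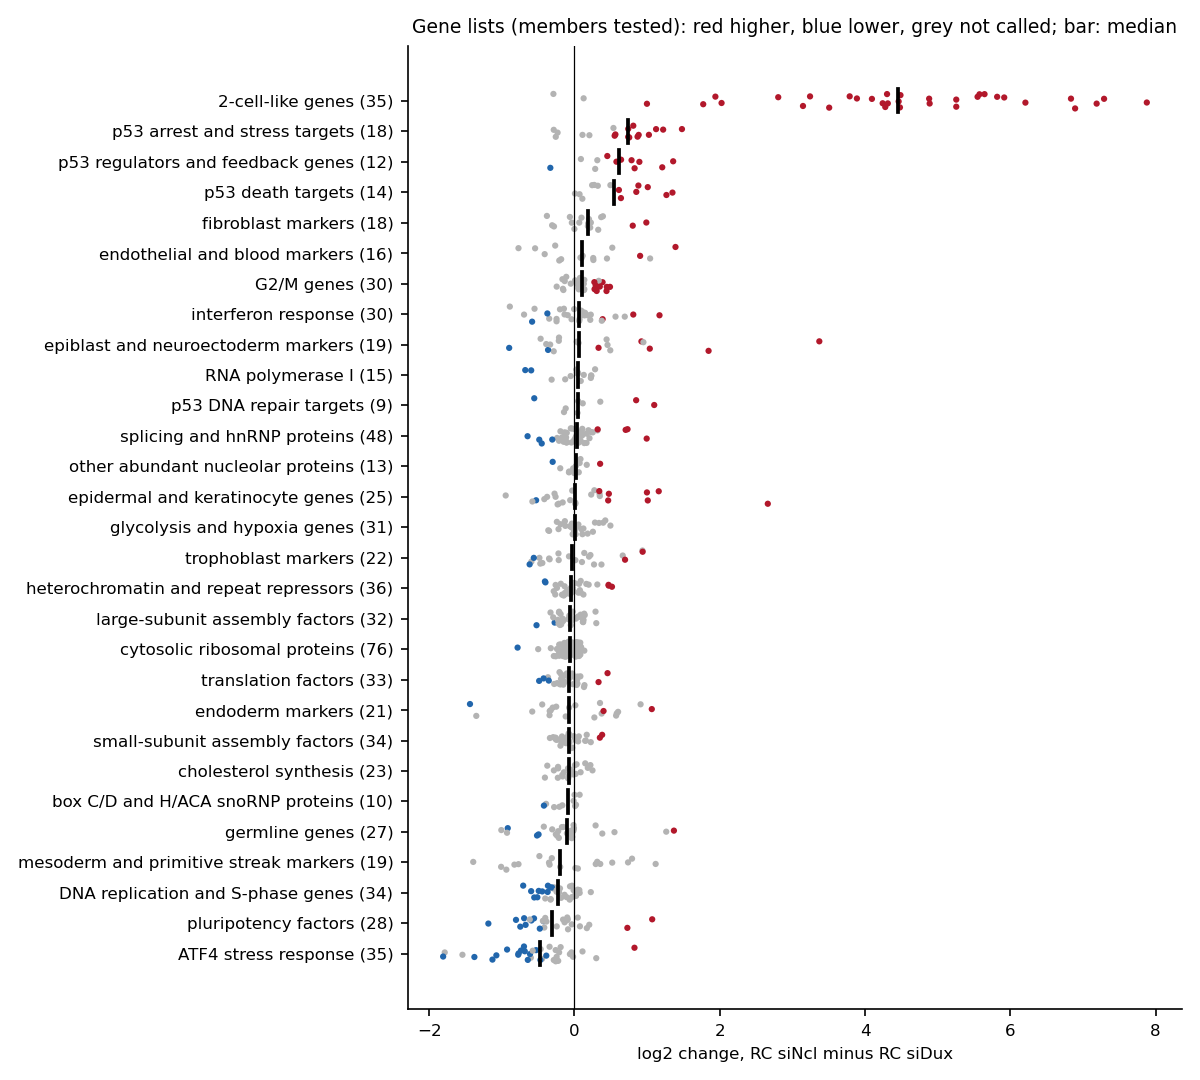
Log2 change, RC siNcl minus RC siDux, of the tested members of each gene list, with the number tested in brackets; red members are called higher, blue lower and grey not called, and bars are medians. The 2-cell-like list (median 4.46) and the p53 arrest list (0.74) lie at the top and the ATF4 list (-0.47) at the bottom.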

How the data were processed

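Per the labels' protocols, libraries came from a directional NEBNext Ultra mRNA kit. The authors deposited 2 tables of read counts, with 23284 genes beside 92 ERCC spike-ins in 1 and 1217 repeat subfamilies in the other. Reads were trimmed with Trim Galore 0.4.0 and aligned to mm9 with TopHat2 2.0.9, and R 3.3.0 and DESeq2 1.12.3 were used, per the submitters' processing notes. Tests and library totals leave the spike-in rows out.

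Here edgeR 4.0.16 (R 4.3.3) was used: filterByExpr by group, TMM scaling, a quasi-likelihood fit with 1 term per group on all 15 libraries (10 residual degrees of freedom), and Benjamini-Hochberg adjustment over all features of the comparison. Repeats used the gene table's library sizes and TMM factors. Alternatives were RLE scaling, scaling to ERCC, no filter, a minimum of 5 CPM for genes or 100 counts for repeats, the 6 libraries alone, a replicate block, DESeq2 1.42.0, own totals for repeats and each library left out. Scripts were tested on simulated data.

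Replicate libraries differed by 2.96 to 7.56 in chi-square over its degrees of freedom, more than sampling noise. Deviations from the group means correlated by 0.149, 0.265 and 0.356 between RC siNcl and RC siDux libraries of the same number. All are above 0.1, so the numbers were taken to pair the samples in the fits with a replicate block. The main test holds no such term, and its calls and p-values leave the pairing out. The pairing rests on the data, since the labels name no shared culture or day.

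The genes named are a fixed set, up to 12 per direction with the largest change, at least 5 CPM and no overlap, up to 5 called members per list by p, and up to 6 repeats per direction. Of the other names given, Dub1, Sp110, Patl2, Pramef8, Zscan4b, Zscan4e, Tdpoz4, AF067063, Gm13078, Gm13083, Asns, Psat1, Phgdh, Shmt2, Atf4, Chac1, Slc7a11, Ddit4, Bbc3, Bax, Pmaip1, Dppa3, Zfp42 and 7 repeats were chosen after their values were seen. Of the genes this rule names, 2 are not reported here. Members and lists were chosen with earlier results of these data known. Figures used matplotlib 3.10.9.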

Additional observations from a re-analysis of the deposited data

How the results depend on the processing

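Of 174 named genes and subfamilies, RLE scaling kept the direction and the side of the threshold of all 174, no filter of 172 and DESeq2 of 169, and the stricter filter of the 160 it tested. Scaling to ERCC spike-ins kept 48, with 114 no longer called and 11 of the opposite sign, and with the replicate block added it kept 123, with 36 no longer called and 10 of the opposite sign. With scaling to ERCC spike-ins 62 genes were higher and 51 lower, and 0 repeats either way; with the replicate block added, 432 genes were higher and 1957 lower, and 2 repeats higher and 10 lower. With the 6 libraries compared alone 1918 genes were higher and 1701 lower, and 36 repeats higher and 11 lower. The replicate block gave 30 higher and 7 lower repeats over 15 libraries. Over 6 libraries it gave 2964 higher and 2696 lower genes, and 74 higher and 35 lower repeats. The block over 15 libraries changed the call of 6 of the 174, all to called: Kdr, Pdk1, Atf4, Chac1, Slc7a11 and Pmaip1. DESeq2 called 20 repeats higher and 2 lower, no filter 2 lower, and own repeat totals 4 lower. Leaving out 1 library gave 848 to 1128 higher genes, 589 to 821 lower genes and 7 to 13 higher repeats, each lowest without RC siNcl replicate 3. Signs turned with ERCC scaling, alone and with the block, for Sox2 (-0.19, -0.18), Npm1 (-0.21, -0.21), Fbl (-0.24, -0.25), Pramef8 (-0.14, -0.13), Bbc3 (-0.23, -0.24), L1Md_F2 (-0.29, -0.23), L1Md_T (-0.27, -0.21), L1Md_Gf (-0.26, -0.17), L1Md_F3 (-0.24, -0.18) and IAPEz-int (-0.12, -0.12). Slc2a1 turned with ERCC scaling alone (-0.02) and L1Md_F2 with own totals (-0.02). Without 1 library, log2 changes ran from -0.04 to 0.05 for Fbl, -0.03 to 0.25 for Pramef8, -0.09 to 0.13 for Bbc3, -0.15 to 0.16 for L1Md_F2, -0.32 to 0.05 for L1Md_A, -0.13 to 0.22 for L1Md_T, -0.11 to 0.30 for L1Md_Gf, -0.21 to 0.06 for L1Md_F and -0.08 to 0.19 for L1Md_F3. None of these turned values was called, and the cause was not tested. Genes with few reads in RC siDux, such as Dux, are limited by depth.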

Other observations

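The lists below are read against the 9.53% of all genes that were higher and the 7.1% that were lower. Of 48 splicing and hnRNP protein genes 4 were higher and 4 lower, shares near those of all genes, and 2 lower without RC siDux replicate 2. Hnrnph1, a splicing regulator gene, was at 945, 919 and 971 CPM in RC siNcl, against 485, 433 and 504 CPM in RC siDux (log2 change 1.00 ± 0.09). Sfpq (0.71 ± 0.15) and Hnrnpa1 (0.73 ± 0.14, with near-identical copies) were higher, and the U1 protein gene Snrnp70 (-0.64 ± 0.10) and Sf3a1 (-0.48 ± 0.11) lower. Of 33 translation factor genes 2 were higher, Eif5 (0.46 ± 0.09) and Eif4g2 (0.33 ± 0.09), and 3 lower, among them Eif3d (-0.49 ± 0.10). Of 36 genes of heterochromatin and repeat repression 3 were higher, among them Atrx (0.47 ± 0.08) and Zfp809 (0.52 ± 0.10), and 2 lower, Trim28 and Ehmt2 (-0.41 ± 0.13, not called in 4 of 6 fits without a library). Eif4g2 was not called without RC siNcl replicate 3 or RC siDux replicate 2.

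Lineage genes gave single calls more than whole lists. Among 19 epiblast and neuroectoderm genes 5 were higher and 2 lower. The Notch ligand gene Dll1 was at 67.2, 77.4 and 88.6 CPM in RC siNcl, against 17.1, 17.6 and 29.7 CPM in RC siDux (1.85 ± 0.29), and Otx2 differed by 0.92 ± 0.18. Among 25 epidermal genes 7 were higher and 1 lower, with Casp14, a caspase gene of the skin barrier, at 10.1 ± 1.61 CPM in RC siNcl and 1.56 ± 0.495 CPM in RC siDux (2.66 ± 0.26). Of 16 endothelial and blood genes 2 were higher, Eng (1.39 ± 0.14) and Tek (0.90 ± 0.13), and with the replicate block 4. Of 27 germline genes Hormad1 was higher (1.37 ± 0.23) and 3 lower, 2 and 5 with the block. Of 22 trophoblast genes 2 were higher, among them Tfap2c (0.94 ± 0.14), and 2 lower, near the shares of all genes, and 4 were lower with the block. Among 30 interferon genes 3 were higher, among them Nlrc5 (1.17 ± 0.28), and 2 lower, also near the shares of all genes. With the block 5 interferon genes were higher, while 0 were without RC siDux replicate 1 (which ended the call of Nlrc5) and 1 was without RC siNcl replicate 3 or RC siDux replicate 2. In mesoderm genes edgeR called 0 of 19, with 0 higher and 2 lower at an unadjusted p under 0.05 and 1 lower by DESeq2, and Kdr (-0.77 ± 0.26) was called with the block (adjusted p = 0.0179). Of 23 cholesterol genes edgeR and DESeq2 called 0, with 1 higher and 4 lower unadjusted. Of 31 glycolysis genes both called 0, with 2 higher and 0 lower unadjusted, and Pdk1 (0.43 ± 0.15) was called with the block (0.44, adjusted p = 0.00792), while Slc2a1 (0.25) was not.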
